A study of Oryza sativa with 10 samples.

Results

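Compact H3K36me3 regions are short stretches of the rice genome that carried an H3K36me3 peak in every genotype of the series. They were chosen by the presence of peaks and by span: the H3K36me3 peaks of 5 genotypes were pooled, peaks that shared at least 1 bp were merged, and merged regions were kept when they held a peak of each of the 5 genotypes and spanned less than 3000 bp. The 48963 pooled peaks gave 13113 merged regions, of which 6650 held peaks of all 5 genotypes. Of these, 3240 were compact, which is 24.7% of all merged regions, and the 3410 others, with a span of 3000 bp or more, are called broad here. The genotypes were GL (Guangluai-4), TQ (Teqing) and 93-11 (Yangdao-6), inbred indica rice, and the crosses of GL with 93-11 (GL×93-11) and with TQ (GL×TQ), both F1, all field grown. Chromatin came from the second fully expanded leaves, pooled over plots, and was precipitated with an antibody against H3K36me3 or H3K27me3. GL is a parent of both hybrids, so comparisons of the hybrids with their parents share the GL library.

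Trimethylation of histone H3 at lysine 36 (H3K36me3) is deposited along the bodies of transcribed genes, and in plants it goes with active transcription. Trimethylation at lysine 27 (H3K27me3) is deposited by Polycomb repressive complexes and goes with silenced genes. In leaf, a mixed tissue, peaks of both marks at a position can come from different cells, from different alleles or from the same nucleosomes, among other sources. The libraries cannot tell these apart. The series held no input library, so signal that does not depend on the antibody could not be set apart either. Each genotype and mark had 1 library. There is therefore no replicate spread and no test between genotypes. The 95% intervals below are Wilson intervals of shares of regions. They take regions as independent and do not cover spread between libraries. The peak lists held between 5364527 and 7096067 H3K36me3 tags (sequenced reads placed in peaks), or 13.4% to 14.9% of the unique mapped reads of a library. By Dixon's ratio for 5 values and its 95% critical value, none of 9 measures passed for any genotype. Of these measures, 1 was the number of compact regions with H3K27me3 and the others came from the H3K36me3 libraries. The ratio takes the 5 values as repeats of each other, whereas these were different genotypes and the hybrids share GL as a parent. With 5 values, a gap must take up most of the range to pass. The result therefore does not show that the genotypes were alike. Positions are those of the Nipponbare genome in the peak lists (version not given in the sources used here). No gene models of that build were used, so regions are named by position.

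Compact regions covered 7.23 Mb, against 12.1 Mb under broad regions. Their spans ran from 407 to 2999 bp, with a median of 2350 bp and quartiles of 1799 and 2704 bp. In 3210 of the 3240 each genotype had a single peak, and 30 held more, up to 9 peaks. The span limit fell within a dense part of the distribution. Just inside it stood regions of 2999 bp on chromosome 4 (30910455 to 30913453), of 2998 bp on chromosome 1 (16085256 to 16088253) and of 2998 bp on chromosome 4 (5780669 to 5783666). Just outside it were 3 regions of exactly 3000 bp, on chromosome 1 (18139220 to 18142219) and on chromosome 3 (7101151 to 7104150 and 35348883 to 35351882). The mean H3K36me3 levels were 5.63, 5.87 and 4.40 inside and 6.27, 7.16 and 3.95 outside, so the levels of these regions overlapped across the limit. A further 818 short regions had peaks of exactly 4 genotypes, and the genotype without a peak was 93-11 in 368 of them, GL in 203, TQ in 109, GL×93-11 in 85 and GL×TQ in 53.

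The level of a region is given as tags per kb of peak per 1000000 unique mapped reads. In compact regions the median level was 5.24 for GL, 4.81 for 93-11, 4.64 for TQ, 4.95 for GL×93-11 and 4.67 for GL×TQ. The genotypes lay close together, with GL at the top. Broad regions had median levels of 6.19 to 6.80, above those of compact regions in each of the 5 libraries. The fold enrichment, which is the ratio of tags at the peak to the local background as the peak caller gave it, had the opposite order. Its median was 3.40 to 3.48 in compact and 2.67 to 2.86 in broad regions. Both measures come from the libraries that chose the regions and are a description.

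**Figure D1:**
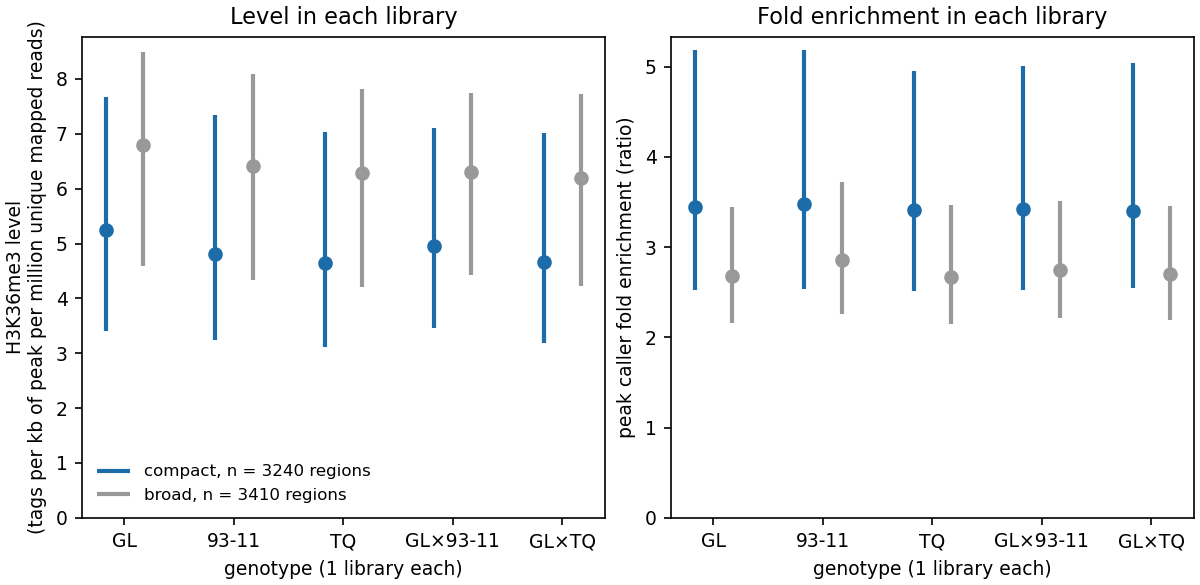
H3K36me3 level (left, tags per kb of peak per 1000000 unique mapped reads) and peak caller fold enrichment (right, ratio) in the 5 libraries. Points are medians over regions and lines run from the 5th to the 95th percentile; compact regions (blue, n = 3240) had lower levels and higher fold values than broad regions (grey, n = 3410) in each library.

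GL had the highest level in 54.6% of compact regions and the longest peak in 52.2%. In 93-11 the median peak length was 1826 bp, against 1982 to 2158 bp in the other genotypes, and its peak was the shortest in 53.5% of regions. The 93-11 list held the fewest tags, and 19.6% of its peaks in compact regions had a score below 100, against 7.72% for GL. The score is a multiple of the negative log10 of the peak caller's p-value. The part of depth in peak length was not tested.

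The strongest compact region by mean level lay on chromosome 6 (18952487 to 18953813). Its levels were 12.4 for GL, 9.46 for 93-11, 11.5 for TQ, 11.6 for GL×93-11 and 11.5 for GL×TQ. 93-11 was the lowest there and GL the highest. The next 4, on chromosomes 3 (32707398 to 32709625 and 4108961 to 4110690), 5 (29278312 to 29280103) and 1 (35763228 to 35764482), had mean levels of 9.29, 9.01, 8.96 and 8.82. The highest mean fold enrichments, 7.91 and 7.81, were on chromosome 4 (12536197 to 12537316) and chromosome 3 (28638783 to 28639986). They were followed by 7.65 on chromosome 12 (21566144 to 21567347), 7.57 on chromosome 4 (9188352 to 9189380) and 7.24 on chromosome 1 (42292950 to 42294146). The first 4 of these 5 carried an H3K27me3 peak in all 5 genotypes, and the fifth in none.

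The peaks of the genotypes lay largely on top of each other. A median of 77.8% of the merged span was under peaks of all 5 genotypes, against 81.8% in broad regions. Between the genotypes the peak starts of a region spread over a median of 200 bp and the ends over 200 bp, and both edges lay within 100 bp in 169 regions, or 5.22%. At chromosome 10, 20411172 to 20411619, all 5 peaks had the same edges. At the other extreme, regions on chromosome 5 (4813061 to 4815883) and chromosome 12 (23952107 to 23955018) had 0 bp under all 5 peaks, since peaks of separate places were chained together.

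Per kb of each genotype's own peak, levels differed little between genotypes. The rule asked for a called peak in every genotype, and a short peak also lowers its own divisor, so large differences were partly kept out beforehand. The ratio of the highest to the lowest genotype level had a median of 1.21 and a 95th percentile of 1.55 in compact regions. It reached 2 in 7 of the 3240 regions, or 0.216%, where 0.105% of the regions of all 5 genotypes did so, and all of these were compact. Per kb of the merged span instead, 368 compact regions reached 2. That count was not made over broad or all merged regions, so it cannot be read as particular to compact ones. In broad regions the median ratio, per kb of peak, was 1.15. Compact regions also had fewer tags, with a median of 314 against 710 in the genotype with the fewest. Among regions with 300 or more tags in each genotype the medians were 1.17 and 1.15, and none of the 1715 compact regions reached 2. The H3K27me3 regions chosen in the same way, 3528 in number, had a median ratio of 1.32, and 141 reached 2. With 300 or more tags their median was 1.30. In the study's PCR checks, with a different primer for each mark, enrichment varied more between genotypes for H3K27me3 than for H3K36me3. The part of enrichment in the wider H3K27me3 ratios was not tested.

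**Figure D2:**
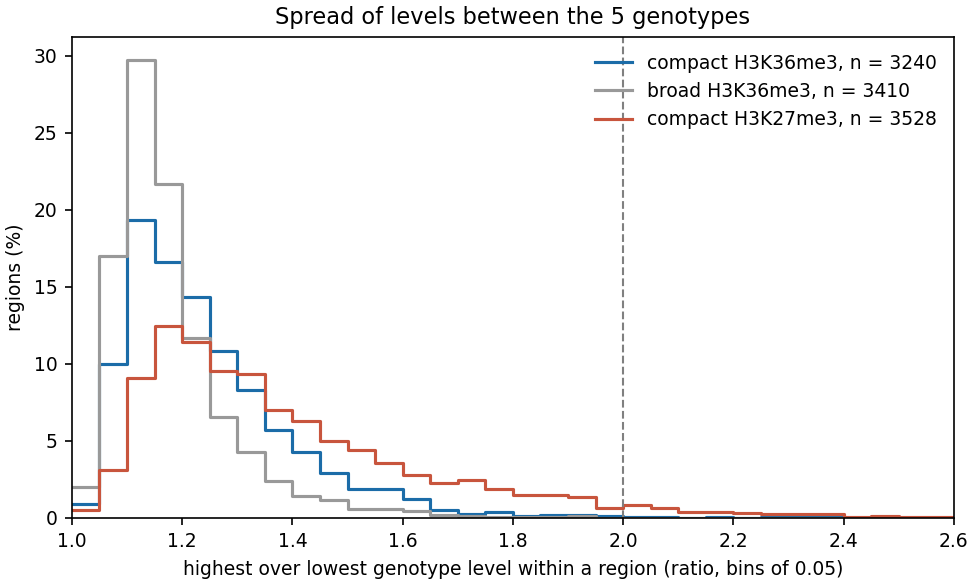
Share of regions (%) by the ratio of the highest to the lowest of the 5 genotype levels, in bins of 0.05, for compact H3K36me3 (n = 3240), broad H3K36me3 (n = 3410) and compact H3K27me3 regions (n = 3528). The dashed line marks a ratio of 2, which 7 compact H3K36me3 regions, 0 broad regions and 141 compact H3K27me3 regions reached.

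The widest spread, a ratio of 2.77, was on chromosome 3 (15004259 to 15007021). Levels there were 7.47 for GL, 6.73 for 93-11, 2.69 for TQ, 6.49 for GL×93-11 and 5.32 for GL×TQ, from 985, 660, 154, 760 and 521 tags. TQ stood alone at the bottom and its hybrid GL×TQ lay between TQ and GL. On chromosome 2 (35109129 to 35110106), levels were 7.78 for GL, 3.31 for 93-11, 3.97 for TQ, 4.66 for GL×93-11 and 4.92 for GL×TQ. Here GL was high and both hybrids lay between their parents. On chromosome 4 (31462931 to 31464835), levels were 7.21 for GL, 3.12 for 93-11, 3.15 for TQ, 5.46 for GL×93-11 and 4.76 for GL×TQ, and the hybrids again lay between their parents. On chromosome 1 (8553935 to 8556403), 93-11 was low at 2.89, with 6.56 for GL, 5.70 for TQ, 5.11 for GL×93-11 and 5.70 for GL×TQ. On chromosome 3 (26698800 to 26701495), 93-11 was low at 2.84, with 6.13 for GL, 5.06 for TQ, 4.37 for GL×93-11 and 5.57 for GL×TQ.

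The other regions with a ratio of 2 or more, which were named after their values were seen, lay on chromosome 6 (3312847 to 3314574, ratio 2.04) and chromosome 11 (15539022 to 15540845, ratio 2.06). In all 7, GL was the highest genotype. The lowest was 93-11 in 5 of them and TQ in 2, and none had an H3K27me3 peak. GL×93-11 lay between its parents in 6 and GL×TQ in 6. The genotype with the lowest level had 111 to 173 tags and scores of 52.9 to 121, which at the lower end is close to the lowest score that the lists hold. Without the GL library, with peaks merged anew, 2 regions reached a ratio of 2, and with peaks of a score of 100 or more 1 did. When tags were divided by the whole merged span instead of the length of the peak, 368 compact regions reached 2, a count not made over other regions. The 7 regions then had ratios of 2.54 to 6.68. Tags outside peaks are not listed, so short peaks give low levels on this scale.

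**Figure D3:**
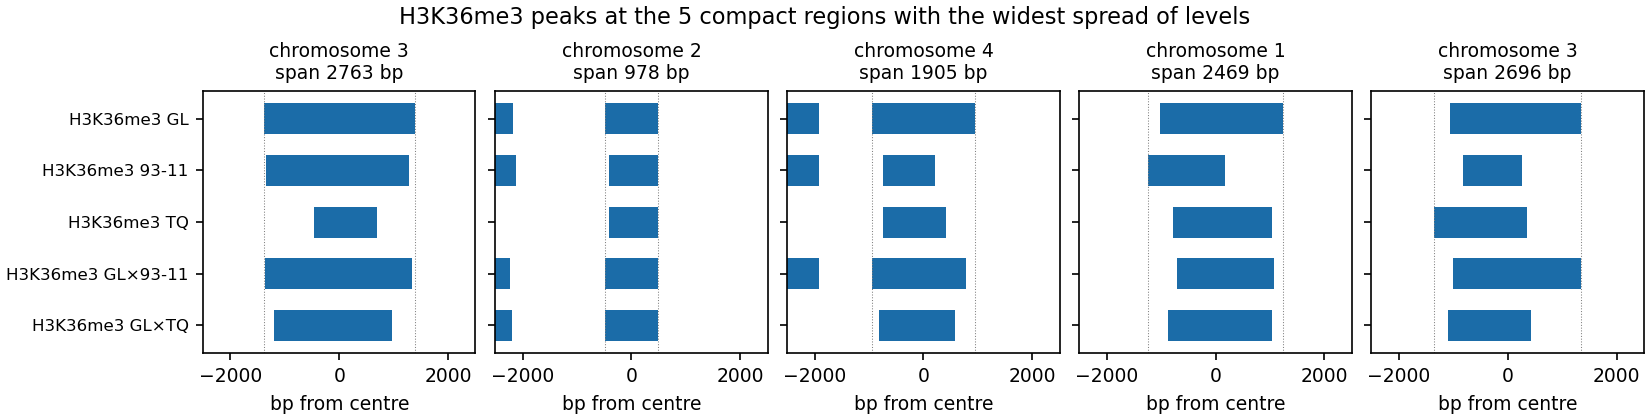
H3K36me3 peaks of the 5 genotypes (blue bars) at the 5 compact regions with the widest spread of levels, by distance in bp from the centre of the region; dotted lines are its edges. At all 5 the genotype with the lowest level also had the shortest peak, as for TQ at the first region (1148 bp against 2763 bp in GL).

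Between parents, GL levels were a median of 1.06 times those of 93-11. In 5 compact regions, or 0.154%, GL was 2-fold or more higher, where 0.0666% of all merged regions with a peak in both were, and in 0 it was 2-fold or more lower. GL levels were 1.10 times those of TQ, with 3 compact regions, or 0.0926%, 2-fold or more higher in GL, where 0.0762% of all merged regions with a peak in both were, and 0 lower. The varieties 93-11 and TQ differed by a median of 1.03 times, with 1 compact region, or 0.0309%, 2-fold or more higher in 93-11, where 0.0364% of all were. At a limit of 1.5, GL was higher than 93-11 in 123 compact regions (3.80%) and lower in 12 (0.370%), where 2.17% and 0.386% of all regions were. GL was higher than TQ in 101 (3.12%) and lower in 6 (0.185%), where 2.69% and 0.178% of all were, so the excess of higher GL levels was also there over all regions. 93-11 was higher than TQ in 23 compact regions and lower in 12, where 0.557% and 0.254% of all were. GL×93-11 was higher than GL×TQ in 3 and lower in 0, where 0.190% and 0.0712% of all were. In all, 7 compact regions had 2 parents 2-fold or more apart. Without the GL library 2 did, with peaks of a score of 100 or more 1 did, and per kb of the merged span 316 did. The counts under these alternatives were not made over all merged regions.

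No compact region had a hybrid level 2-fold or more away from the mid-parent level, the mean of the parents, and 0% of all regions did. Per kb of the merged span, 13 compact regions did, a count not made over all merged regions. The hybrid level was a median of 0.977 times the mid-parent level in GL×93-11 and 0.950 times in GL×TQ, and the 5th and 95th percentiles were 0.870 and 1.13 times in GL×93-11 and 0.830 and 1.07 times in GL×TQ. GL×93-11 was within the range of its parents in 52.0% of regions, below it in 33.4% and above it in 14.6%. GL×TQ was within it in 48.7%, below in 41.0% and above in 10.3%. The side depended on the scaling for GL×TQ: with levels divided by the tags in peaks of the library, 9.48% of regions were below and 43.6% above.

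The compact region farthest above the mid-parent level in GL×93-11 was on chromosome 10 (2167786 to 2169232). Its levels were 3.06 for GL, 3.52 for 93-11 and 4.84 for GL×93-11, or 1.47 times the mid-parent level, with 3.95 for TQ and 3.69 for GL×TQ. The hybrid was above both its parents. The next were 1.37 times on chromosome 11 (23464487 to 23465802) and 1.36 times on chromosome 2 (2263678 to 2265244). Farthest below were 0.742 times on chromosome 9 (20271916 to 20274233), 0.743 times on chromosome 3 (7797823 to 7800461) and 0.752 times on chromosome 8 (24950767 to 24953209).

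For GL×TQ the farthest above was chromosome 3 (31803265 to 31804010). Levels there were 4.05 for GL, 3.24 for TQ and 5.06 for GL×TQ, or 1.39 times the mid-parent level. Its tags were 144, 120 and 136, so the hybrid had no more tags than GL but a peak of 598 bp instead of 746 bp. The next were 1.34 times on chromosome 7 (17096963 to 17098219) and 1.28 times on chromosome 2 (28714776 to 28715348). Farthest below was chromosome 8 (27476397 to 27478590), with levels of 6.46 for GL, 3.87 for TQ and 3.55 for GL×TQ, or 0.687 times the mid-parent level. The hybrid was close to TQ there. The next were 0.703 times on chromosome 1 (28724710 to 28726117) and 0.720 times on chromosome 10 (15142324 to 15143515).

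H3K27me3, whose peaks took no part in choosing the regions, was found over compact regions more often than over broad ones. A peak of at least 1 genotype overlapped 451 compact regions, or 13.9% (12.8% to 15.2%, Wilson interval), where 12.0% of all merged H3K36me3 regions had one. In broad regions the share was 6.25% (5.48% to 7.11%). By genotype, the share of compact regions with an H3K27me3 peak was 10.3% for GL, 9.44% for 93-11, 8.67% for TQ, 9.14% for GL×93-11 and 8.49% for GL×TQ, against 8.46%, 6.86%, 6.68%, 6.91% and 6.48% of all merged regions. Each was above the share in broad regions, 3.26% to 4.08%. The intervals take regions as independent, which neighbouring regions need not be, so they are no test of this difference. All 5 genotypes had an H3K27me3 peak over 178 compact regions, or 5.49%, where 3.46% of all merged regions did. Short regions of fewer than 5 genotypes had a peak of at least 1 genotype in 19.8%, so the compact regions lay between these and the broad ones.

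The share with H3K27me3 was lower in each longer class of span up to 5000 bp. It was 56.4% in the 39 regions under 1000 bp, 20.6% from 1000 to under 1500 bp, 16.4% from 1500 to under 2000 bp, 13.8% from 2000 to under 2500 bp and 9.51% from 2500 to under 3000 bp. Beyond the limit it was 6.43% from 3000 to under 4000 bp, 4.42% from 4000 to under 5000 bp and 14.3% (4.01% to 39.9%), or 2 of 14 regions, from 5000 bp. The limit of 3000 bp therefore cut a gradient. Where both marks met, the H3K27me3 peak covered a median of 71.1% to 86.4% of the compact region, by genotype, and 9.49% to 15.0% of a broad one. In the short regions of fewer genotypes it covered a median of 87.9% to 93.6%, so high cover was not particular to compact regions. Cover is a share of the span, and broad regions are longer by definition. The part of span in the contrast with broad regions was not tested. The H3K27me3 peak crossed 1 edge of the compact region in 49.9% to 58.8% of cases. In most others it lay inside the region or contained it.

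**Figure D4:**
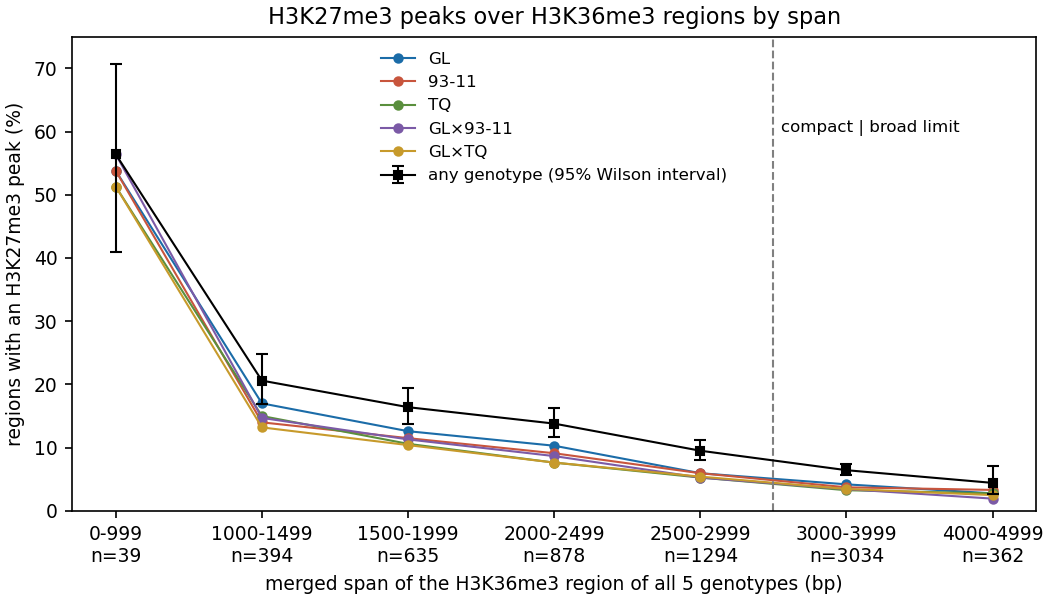
Share of H3K36me3 regions of all 5 genotypes that had an H3K27me3 peak (%), by merged span in bp, for each genotype (coloured) and for any genotype (black, with 95% Wilson intervals). The share for any genotype went from 56.4% in regions under 1000 bp to 6.43% in those of 3000 to under 4000 bp; the dashed line is the span limit.

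H3K27me3 was found in the hybrid most often where both of its parents had it. Of 219 regions with a peak in both GL and 93-11, GL×93-11 had one in 206, or 94.1%. Where GL alone of these parents had a peak, the hybrid had one in 39 of 116 (33.6%), and where 93-11 alone did, in 42 of 87 (48.3%, 38.1% to 58.6%). For GL×TQ the shares were 89.5% with both parents, 23.4% (16.4% to 32.2%) with GL alone and 62.3% (48.8% to 74.1%) with TQ alone. With neither parent they were 0.319% and 0.456%. Of the 99 regions with H3K27me3 in a single genotype, that genotype was GL in 61. GL also had an H3K27me3 peak over the largest share of all merged regions, 8.46% against 6.48% to 6.91% in the other genotypes. The counts of this paragraph were not made over all merged regions, so they cannot be read as particular to compact ones.

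Regions with H3K27me3 in all 5 genotypes were shorter, with a median span of 1837 bp against 2390 bp in the 2789 without any. Their mean level was 4.59 against 4.91 and their mean fold enrichment 3.80 against 3.42, as medians. These sets were not matched for span. Over all compact regions, the rank correlation (Spearman) of span was 0.523 with mean level and -0.503 with mean fold enrichment. All regions of 5 genotypes from 1500 to 1999 bp had a median level of 4.23 and a median fold enrichment of 3.76. The part of span in the difference between the sets was not tested. In both sets GL was the genotype that most often had the highest H3K36me3 level. It did so in 34.3% (27.7% to 41.5%) of the 178 regions and in 56.5% (54.7% to 58.4%) of the 2789. By median level, GL in the 178 regions, at 4.61, was below 93-11 at 4.84 and GL×93-11 at 4.82. Over the 2789 regions GL had the highest median level, 5.35, against 4.72 to 4.99 in the other genotypes.

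At the region on chromosome 11 (25988624 to 25989772), which had the highest mean H3K27me3 fold enrichment, H3K27me3 tags were 519 for GL, 434 for 93-11, 435 for TQ, 487 for GL×93-11 and 502 for GL×TQ. H3K36me3 tags were 223, 217, 210, 221 and 187, fewer than those of H3K27me3 in each genotype. Tag counts from different antibodies and libraries do not rank the amounts of the marks. At chromosome 4 (9188352 to 9189380), H3K36me3 tags were 312, 293, 299, 302 and 295 and H3K27me3 tags 286, 268, 276, 280 and 264. At chromosome 10 (20411172 to 20411619), H3K36me3 tags were 160, 142, 156, 156 and 159 and H3K27me3 tags 162, 148, 148, 150 and 148. On the scale of levels, which takes account of depth, H3K36me3 ran from 5.83 for TQ to 7.64 for 93-11 at the first of these and from 6.99 for TQ to 8.50 for 93-11 at the second. The remaining regions of the 5 were on chromosome 2 (18881021 to 18882109) and chromosome 12 (21566144 to 21567347).

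**Figure D5:**
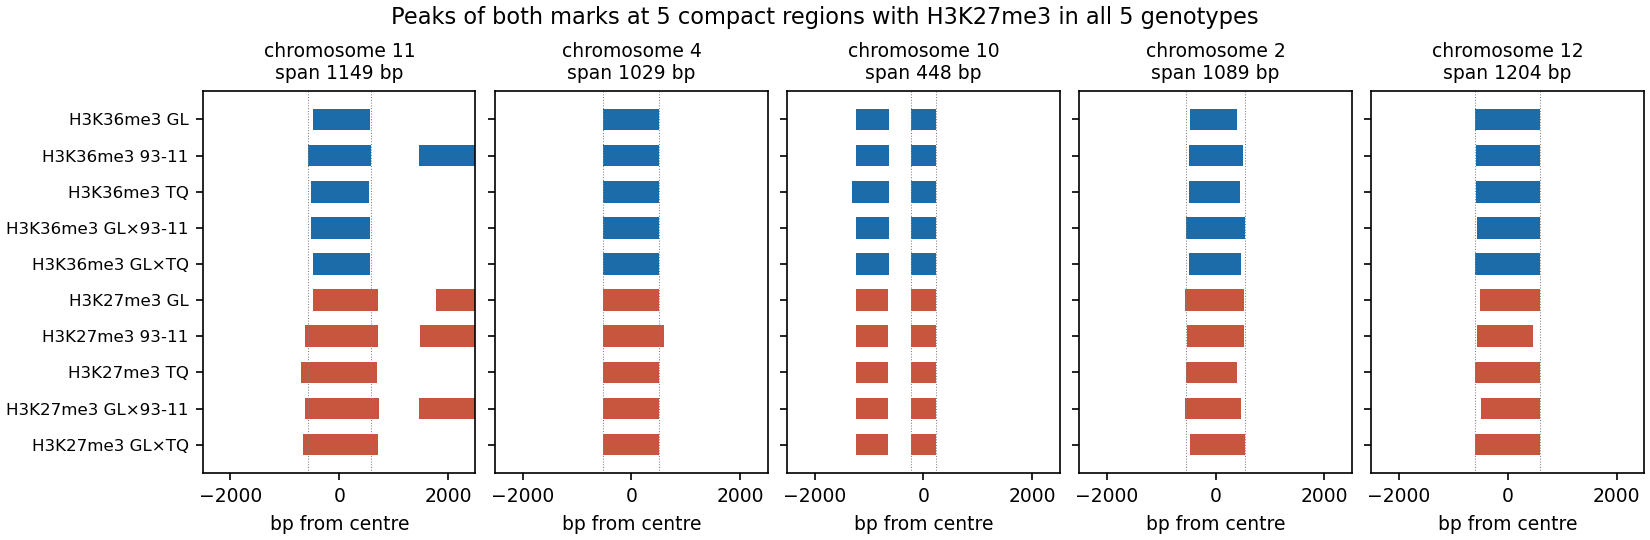
Peaks of H3K36me3 (blue) and H3K27me3 (red) of the 5 genotypes at 5 compact regions with H3K27me3 in all 5 genotypes, by distance in bp from the centre of the region; dotted lines are its edges. At the regions of 1029 bp and 448 bp the peaks of both marks began and ended at nearly the same places.

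Such shared edges were counted after they had been seen, and over compact and broad regions only. They were not counted over all merged regions or short regions of fewer than 5 genotypes, so they cannot be read as particular to compact ones. In 121 compact regions, or 26.8% of those with H3K27me3, peaks of both marks in at least 1 genotype started and ended within 100 bp of each other, against 12 broad regions, or 5.63%. In 17 compact regions this held in all 5 genotypes, and in 1 broad region. These 17 had a median span of 834 bp, a median fold enrichment of 5.10 and a median of 95.8% of the span under all 5 peaks. The 3 shortest compact regions, on chromosomes 8 (9279674 to 9280080), 4 (9168666 to 9169103) and 10 (20411172 to 20411619), also had H3K27me3 in all 5 genotypes. In the 17 regions, tags of both marks were similar, with a median ratio of H3K36me3 to H3K27me3 tags of 1.06 to 1.26 by genotype. The highest H3K36me3 level was that of 93-11 in 11 and of GL×93-11 in 6, and that of GL in 0. In tags, 93-11 had the lowest median of the genotypes, 139 against 149 to 163, and its H3K36me3 library had the fewest unique mapped reads. The part of depth in this order was not tested. Without the 121 regions, 10.6% of compact regions and 5.92% of broad ones had an H3K27me3 peak.

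Compact regions made up 48.7% of the regions of all 5 genotypes, from 45.7% on chromosome 3 to 55.4% on chromosome 12. Their density ran from 6.35 per Mb on chromosome 11 to 10.8 on chromosome 3. H3K27me3 was found over 21.9% (16.9% to 27.9%) of compact regions on chromosome 12 and over 11.3% on chromosome 5. Without the 1 Mb window from 13000001 to 14000000, the share on chromosome 12 was 15.6% (11.2% to 21.3%). With each chromosome cut into 5 equal segments, 25.6% of compact and 29.4% of broad regions lay in the last. The median distance to the nearest other H3K36me3 region was 5864 bp, against 5108 bp for broad regions. The most isolated compact regions were on chromosome 4 (17319532 to 17322264), 343411 bp from any other, chromosome 6 (9633107 to 9635711) and chromosome 11 (12751533 to 12753563).

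Of 228 windows of 1 Mb with 15 or more regions of all 5 genotypes, the highest share of compact regions was 95.2%, on chromosome 12 from 13000001 to 14000000, where 20 were compact and 1 broad. The median window had 48.0%. Within it, 15 compact regions lay between 13341498 and 13416751, a stretch of 75.3 kb, and all 15 had an H3K27me3 peak, 12 of them in all 5 genotypes. All 15 shared edges between the marks in at least 1 genotype. Median H3K36me3 tags over the 15 were 196 for GL, 190 for 93-11, 183 for TQ, 237 for GL×93-11 and 207 for GL×TQ. The highest level was that of 93-11 in 9 and of GL×93-11 in 6, and 3 of the 15 are among the 17 regions above. Without this window, 13.5% of compact regions had an H3K27me3 peak.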

How the data were processed

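Reads had been filtered by the authors, aligned to the Nipponbare genome with SOAP and turned into peaks, library by library, with MACS. The deposited lists give each peak's tag count, its score (a multiple of the negative log10 of the p-value, in a column whose heading was lost and which was read from its lowest value) and its fold enrichment ratio, as the authors' software wrote them. No input control for peak calling is named in the methods. The lists show only peaks that passed the authors' threshold, so a missing peak is not an absence of the mark.

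Levels are tags per kb of peak per 1000000 unique mapped reads, with the library totals taken from the study's supplementary tables. Medians, Wilson intervals (95%) and overlaps of at least 1 bp were computed with numpy 2.4.6, pandas 2.3.3 and scipy 1.17.1. Merging was tested on simulated data, where 2000 of 2000 regions and 255 of 255 compact regions were recovered. With 1 library per genotype and mark no test between genotypes was run. Dixon's ratio was used only to look for a genotype set apart, and it cannot show that genotypes were alike.

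The members and lists were chosen with earlier results of these data known. Named regions are those with the highest mean level or fold enrichment, the largest ratio of levels, the largest distance from the mid-parent level, the shortest span, spans next to the limit, the largest and smallest shared length, the highest H3K27me3 fold among regions with H3K27me3 in all 5 genotypes, and the largest distance from another region. The alternatives were a score of 100, another merging, other span limits, other scalings, a larger overlap and leaving out each library. Shared edges, the chromosome 12 window and the limit of 300 tags were added after seeing the data.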

Additional observations from a re-analysis of the deposited data

How the results depend on the processing

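Of 72 values under alternatives, 48 stayed within 1.5 times the main count or within the interval of the main median, and 24 moved. The causes were not tested. With peaks of a score of 100 or more, asked of both marks, there were 2311 compact regions instead of 3240. Of these, 222 had an H3K27me3 peak, instead of 451 of the 3240. In 1 region instead of 7 the ratio was 2 or more, and 1 instead of 7 had parents 2-fold apart. The median fold enrichment was 3.53 and the median share under all 5 peaks 80.4%. A span limit of 2500 bp gave 1946 compact regions, a fold of 3.70 and a share of 76.5%, and one of 3500 bp gave 4896, 3.19 and 79.3%. Per kb of the merged span, 368 regions had a ratio of 2 or more and 316 had parents 2-fold apart. On that scale 13 had a hybrid 2-fold away from the mid-parent level instead of 0. These counts were made over compact regions only. With 300 or more tags in each genotype, chosen after seeing the data, 0 regions had a ratio of 2 or more.

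Leaving out 1 H3K36me3 library at a time gave 3365 to 3876 compact regions, 459 to 532 with an H3K27me3 peak, 2 to 7 with a ratio of 2 or more, 2 to 7 with parents 2-fold apart, 0 to 0 with a hybrid 2-fold away, fold medians of 3.35 to 3.42 and shares of 78.9% to 82.8%. The mid-parent comparison could not be made without GL. No paired analysis was possible because each genotype and mark had 1 library. Tag counts of 80 to 1265 per compact region set the precision, and 1 library per genotype leaves biological spread unknown.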
